A study of Homo sapiens with 26 samples.

Results

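The genes described here are 10 markers of the lung epithelium, 5 lineage transcription factors and 5 products of alveolar or airway cells. They were taken by symbol from the 17687 genes named in the deposited array values, and each of the 10 was represented by 1 probe set. The transcription factors were NKX2-1, FOXA1, FOXA2, GATA6 and SOX2, and the cell products were SFTPB, SFTPC, NAPSA, LAMP3 and SCGB1A1. RNA of 26 samples was hybridised to single-colour arrays. H1975 cells treated with Omomyc gave 5 arrays, against 4 with PBS. For A549 there were 3 Omomyc and 4 PBS arrays, and for H1299 5 Omomyc and 5 PBS arrays. Omomyc, a small protein made from the DNA-binding MYC domain that holds the leucine zipper, with altered residues, binds MAX and occupies E-boxes in place of MYC. Cells plated the day before received it at 12.8 µM, and controls received its vehicle PBS. How long the exposure lasted is not stated in the labels. NCI-H1975 is an EGFR-mutant line labelled lung adenocarcinoma. A549, a KEAP1-mutant line, and NCI-H1299, a p53-deficient line from a lymph node metastasis, are labelled lung carcinoma. Each is 1 established line, so a difference between lines belongs to these lines and not to a tumour type. With PBS as the only control, effects particular to Omomyc cannot be told apart from those of adding a protein.

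In the developing and adult lung, NKX2-1 (TTF-1) specifies the respiratory lineage and, together with the pioneer factors FOXA1 and FOXA2 and the zinc finger factor GATA6, activates surfactant genes. SOX2 marks the proximal, airway-forming epithelium. Alveolar type 2 cells make surfactant proteins B and C (SFTPB, SFTPC), and the aspartic protease napsin A (NAPSA) takes part in processing surfactant protein B. These cells carry the lysosomal membrane protein LAMP3 on the lamellar bodies that store surfactant. Club cells of the small airways secrete the protein encoded by SCGB1A1. Pathologists use NKX2-1 and napsin A to recognise lung adenocarcinoma.

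The 250 bases before the start sites of 3 of the factors are shown, FOXA1 and GATA6 because both rose with Omomyc in H1299, and NKX2-1 because it set H1975 apart, from RefSeq on GRCh38.p14. They lie at chr14:37595250-37595499 (minus strand) for FOXA1, chr18:22169339-22169588 (plus strand) for GATA6 and chr14:36519557-36519806 (minus strand) for the first of 2 NKX2-1 starts listed. Capitals mark matches, on either strand, to the E-box CACGTG bound by MYC and MAX, the forkhead motif TGTTTAC, the GATA motif AGATAA and the NKX2 motif CTCAAG.
FOXA1: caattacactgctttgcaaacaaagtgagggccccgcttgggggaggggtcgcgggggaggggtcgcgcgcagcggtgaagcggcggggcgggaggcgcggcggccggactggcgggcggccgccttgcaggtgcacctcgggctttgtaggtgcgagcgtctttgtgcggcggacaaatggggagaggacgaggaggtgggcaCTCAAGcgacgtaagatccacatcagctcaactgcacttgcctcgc
GATA6: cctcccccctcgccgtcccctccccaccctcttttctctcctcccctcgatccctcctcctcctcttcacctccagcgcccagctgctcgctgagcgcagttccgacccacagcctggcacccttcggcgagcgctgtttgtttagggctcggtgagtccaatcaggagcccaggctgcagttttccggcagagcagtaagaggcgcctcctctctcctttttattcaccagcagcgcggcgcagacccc
NKX2-1: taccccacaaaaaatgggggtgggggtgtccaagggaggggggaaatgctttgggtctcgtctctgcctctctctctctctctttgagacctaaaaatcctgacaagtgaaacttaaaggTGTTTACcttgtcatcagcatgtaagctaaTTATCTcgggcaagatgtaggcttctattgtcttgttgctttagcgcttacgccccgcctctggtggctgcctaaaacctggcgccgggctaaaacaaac
No E-box is in these 3 windows, and 6.34% of 35116 promoter windows of this length hold 1. The FOXA1 window has an NKX2 motif 46 bases before the start (10.4% of windows hold it), the NKX2-1 window a forkhead motif at 130 bases (2.98%) and a GATA motif at 100 bases (9.17%), and the GATA6 window has none of the 4. The window of the other NKX2-1 start, which is not printed, also has none of the 4. Among members whose windows are not printed, NAPSA does hold an E-box at chr19:50369303-50369552 (minus strand). This E-box lies 77 bases before that start, and an NKX2 motif lies at 196 bases. A match describes these letters and shows no binding.

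Levels are log2 values, and a response is the log2 level with Omomyc minus that with PBS. After ± stands the SE from limma for a difference, and the SD for a mean. Calls were made at an adjusted p under 0.05 (Benjamini-Hochberg over all 17687 genes). The arrays carry 23 background probe sets, whose means ran from 2.34 to 6.69 with a median of 4.09, and a member counted as above background in a group where its mean exceeded 6.69, as 48.5% of all genes did in H1975 Omomyc arrays and 49.2% in H1975 PBS arrays, 48.7% and 48.5% in A549 Omomyc and PBS arrays, and 48% and 48.3% in H1299 Omomyc and PBS arrays. A mean below that level was taken as a bound on a transcript. The limit is strict, since it is the highest of the 23 means and lies above the median gene mean of 6.48. A member called below background may therefore still be expressed. The values spread more widely than RMA usually gives, so whether the values were scaled further, and with it the true size of a fold, is not known. AKR1B10, an aldo-keto reductase high in KEAP1-mutant cells, checked the labels of A549 against the other lines. It was at 16.75 ± 0.38 in A549 Omomyc and 17.10 ± 0.22 in A549 PBS arrays (SD, n = 3 and 4), and at means of 2.92 to 3.75 in the other 4 groups. Those 4 means were below background, so AKR1B10 cannot tell H1975 from H1299. AKR1C1, the other gene set for this check, was at 8.16 ± 0.47 in H1975 Omomyc and 9.37 ± 0.33 in H1975 PBS arrays. In H1299 Omomyc and PBS arrays it was below background, at 4.03 ± 0.59 and 4.36 ± 0.75, and in A549 at 16.79 and 16.73. These levels set H1975 apart from H1299 and do not by themselves show which is which. The whole-array distributions fell into 3 sets of 9, 10 and 7 arrays, called normalization runs here, which no label names. Both treatments of every line were in each run, apart from run 3, which lacked A549 with Omomyc, so member differences are also given within runs. Run 1 of H1299, run 2 of A549 and run 3 of H1975 set 1 Omomyc array against 1 PBS array.

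Of the 10 members, 6 were above background in at least 1 group, 4 were above it in none, and no member was above it in all 6 groups. The lines did not share a lineage profile. H1975 PBS arrays had NKX2-1 and GATA6 above background, A549 PBS arrays had FOXA1, FOXA2 and SOX2, and H1299 PBS arrays had GATA6 and LAMP3. With Omomyc the same members were above background in H1975 and A549, and FOXA1 joined GATA6 and LAMP3 in H1299. NAPSA was below background in every line, and NKX2-1 was above it in H1975 alone, so neither adenocarcinoma marker was detected above background in A549 or H1299.

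**Figure D1:**
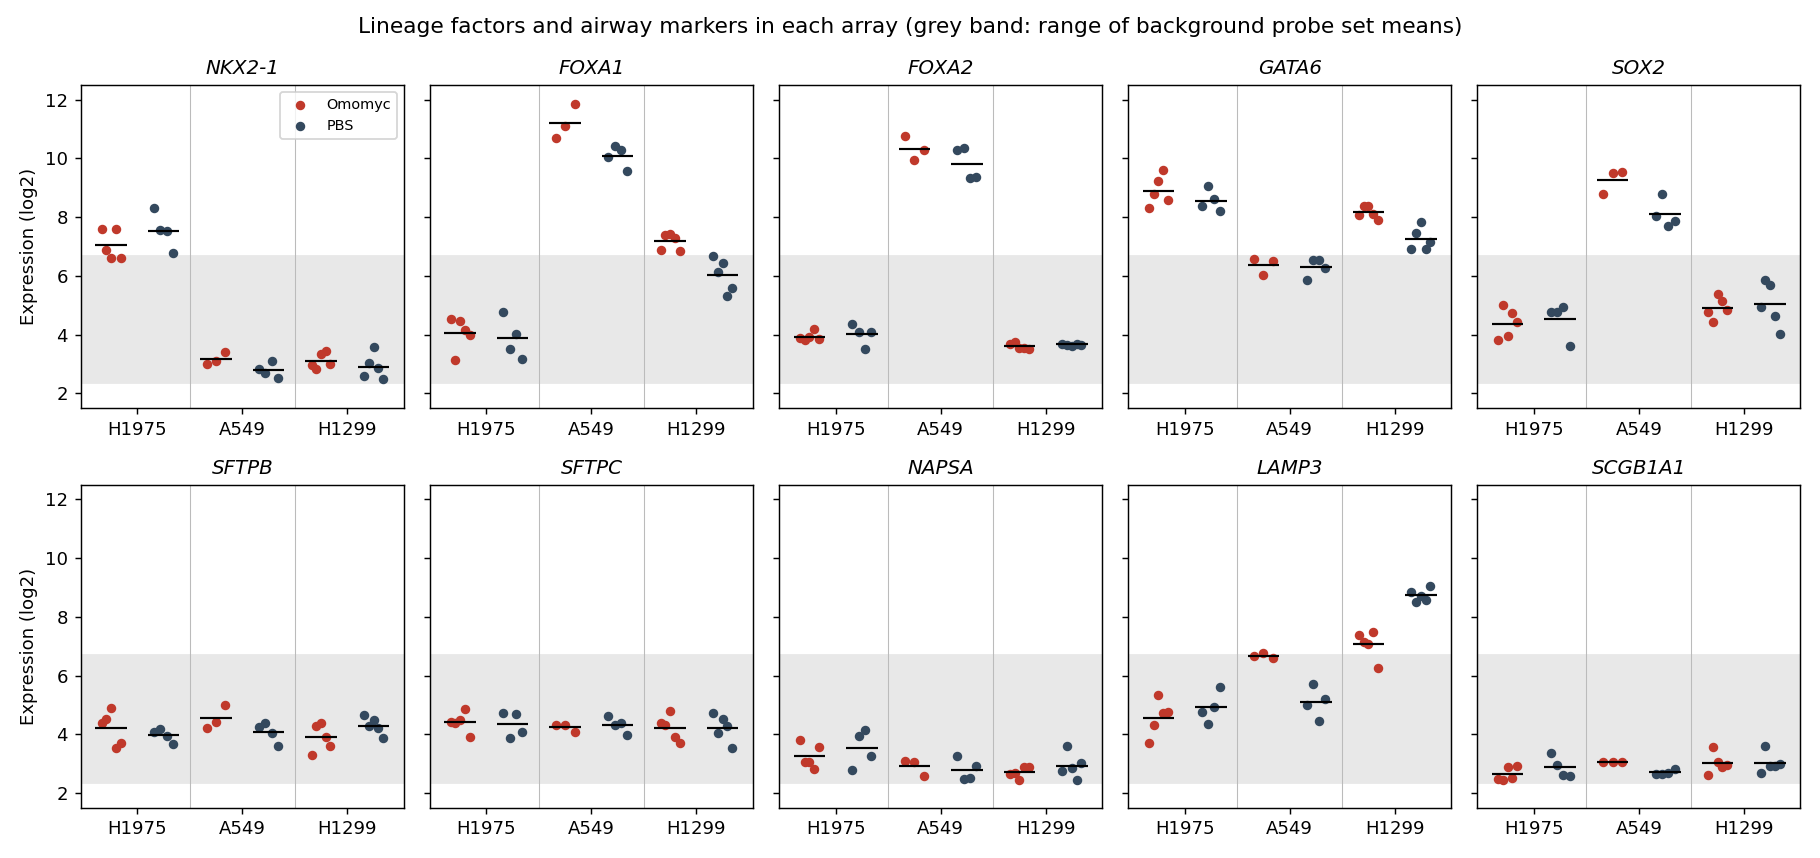
Log2 expression of the 10 members in each array (points), with the group mean (black bar), Omomyc in red left of PBS in dark blue for each line; the grey band spans the means of the 23 background probe sets, 2.34 to 6.69. Both NKX2-1 means leave the band in H1975, though Omomyc replicates 3 and 5 lie inside it at 6.62 and 6.59. FOXA2 and SOX2 leave the band in A549. SFTPB, SFTPC, NAPSA and SCGB1A1 stay inside it or at its lower edge in every group.

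NKX2-1 was at 8.31, 7.55, 7.51 and 6.79 in the 4 H1975 PBS arrays, a mean of 7.54 ± 0.62 (SD). That mean is 0.85 above the highest background mean. Of the 4 arrays, 3 exceeded the highest background probe set of the same array, and replicate 2, at 7.55, was under it at 7.64. NKX2-1 means were 2.79 ± 0.25 in A549 and 2.91 ± 0.44 in H1299 PBS arrays (SD, n = 4 and 5), below the median background. The distance of H1975 was 4.75 ± 0.29 from A549 (limma adjusted p = 3.68e-14) and 4.64 ± 0.27 from H1299 (limma adjusted p = 1.65e-14). No H1975 PBS array overlapped those lines. Because A549 and H1299 were below background, the supported folds are smaller, at least 1.62-fold and at least 1.49-fold; these bounds set each array of the dim line at the highest background probe set of that array. A549 and H1299 differed by -0.12 ± 0.27 (95% interval -0.69 to 0.45, A549 minus H1299).

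FOXA1 and FOXA2, the paired forkhead pioneer factors, were both above background in A549 PBS arrays and both below it in H1975 and H1299 PBS arrays. FOXA1 had PBS means of 10.08 ± 0.38 in A549, 6.03 ± 0.57 in H1299 and 3.87 ± 0.69 in H1975 (SD), and the PBS arrays of the 3 lines did not overlap. A549 exceeded H1299 by 4.05 ± 0.33 (limma adjusted p = 1.58e-11), at least 8.03-fold. H1975 lay 2.16 below H1299 (difference -2.16 ± 0.33, limma adjusted p = 2.4e-06). Both means were below the highest background probe set, so no fold is given and the size of this gap is uncertain. FOXA1 exceeded 14 to 23 of the 23 background probe sets of the same array in H1299 PBS arrays, and 10 to 12 in H1975. Within runs 1, 2 and 3 H1975 minus H1299 was -1.91, -2.51 and -2.27. FOXA2 was at 9.83 ± 0.56 in A549 PBS arrays, whereas H1975 was at 4.01 ± 0.36 and H1299 at 3.66 ± 0.03. A549 exceeded H1299 by 6.17 ± 0.22 (limma adjusted p = 8.41e-20), at least 7.27-fold, and the gap to H1975 was of like size (H1975 minus A549 -5.82 ± 0.23, at least 7.4-fold). H1975 and H1299, neighbours near the median background, differed by 0.35 ± 0.22 in FOXA2 (95% interval -0.10 to 0.80).

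GATA6 was the member with the most arrays above background, 20 of 26 exceeding the highest background probe set of the same array. Its PBS means were 8.56 ± 0.38 in H1975, 7.25 ± 0.39 in H1299 and 6.31 ± 0.32 in A549 (SD). H1975 was above H1299 by 1.31 ± 0.25 (limma adjusted p = 7.87e-05), and A549 minus H1299 was -0.95 ± 0.25 (limma adjusted p = 0.0027). With A549 below background, the supported fold is at least 1.33-fold higher in H1299. Within runs 1, 2 and 3 alone A549 minus H1299 was -0.70, -1.10 and -0.76 (limma adjusted p = 0.224, 0.0314 and 0.0807). SOX2 had its highest PBS level in A549, 8.10 ± 0.48, against 5.02 ± 0.76 in H1299 and 4.52 ± 0.61 in H1975, which did not differ from each other beyond their spread (H1975 minus H1299 -0.50 ± 0.34, limma adjusted p = 0.266). A549 exceeded H1299 in SOX2 by 3.08 ± 0.34 (limma adjusted p = 1.1e-08), at least 2.2-fold.

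LAMP3 was the alveolar product with a level above background, in H1299. Its PBS means were 4.91 ± 0.52 in H1975 and 5.09 ± 0.53 in A549 (SD, n = 4 each), whereas the 5 H1299 PBS arrays were at 8.86, 8.51, 8.72, 8.58 and 9.04. The H1299 level exceeded both without overlap, by at least 3.73-fold over A549 (A549 minus H1299 -3.66 ± 0.30, limma adjusted p = 1.87e-11) and at least 3.49-fold over H1975 (H1975 minus H1299 -3.83 ± 0.30, limma adjusted p = 6.89e-12). A549 and H1975 did not differ beyond their spread (H1975 minus A549 -0.18 ± 0.31). H1299 combined the highest LAMP3 with NKX2-1, SFTPB, SFTPC and NAPSA below background.

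The 3 type 2 genes SFTPB, SFTPC and NAPSA and the club cell gene SCGB1A1 gave no signal above background in any of the 26 arrays. SFTPB ranged from 3.31 to 5.00, SFTPC from 3.52 to 4.85, NAPSA from 2.44 to 4.16 and SCGB1A1 from 2.44 to 3.59. Within an array, SFTPB and SFTPC exceeded 10 to 12 and 11 to 12 of the 23 background probe sets, and SCGB1A1 exceeded 4 to 11. These transcripts were not detectable at this background, which does not show that they are absent. NAPSA passed the test between H1975 and A549 PBS arrays (0.75 ± 0.28, limma adjusted p = 0.0369), though both means, 3.54 and 2.79, were below background and the groups overlapped. The NAPSA call was lost without H1975 PBS replicate 2 or 3 or A549 PBS replicate 2 or 3 (limma adjusted p up to 0.168), and the difference was -0.08 in run 1 alone.

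Between H1975 and A549 PBS arrays 6 of 10 members were called, 3 higher and 3 lower in H1975, where 38.3% of all genes were called, 20.3% higher and 18% lower. Between H1975 and H1299 4 were called, 2 higher and 2 lower in H1975, against 42% of all genes, 21.2% higher and 20.8% lower. Between A549 and H1299 5 were called, 3 higher and 2 lower in A549, against 41.5%, with 19% higher and 22.5% lower. The PBS arrays did not overlap for 5, 4 and 5 members in these 3 comparisons, as for 35.2%, 34.5% and 35.1% of all genes. Each PBS group enters 2 of these comparisons, so they share arrays.

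Omomyc was followed by a called change in few of the members. In H1975 0 of 10 passed the limma test, and 0 had an unadjusted p under 0.05, in a comparison that called 11.8% of all genes, 5.57% higher and 6.28% lower. In A549 1 member rose and 0 fell, where 0.916% of all genes were called higher and 0.277% lower. In H1299 2 rose and 1 fell, against 4.35% higher and 4.52% lower over all genes. The Omomyc and PBS arrays did not overlap for 0 members in H1975, 3 in A549 (LAMP3, FOXA1 and SCGB1A1) and 3 in H1299 (LAMP3, FOXA1 and GATA6), as for 10.5%, 9.39% and 8% of all genes. The median member difference was -0.11 in H1975, 0.43 in A549 and -0.03 in H1299, and the medians over all genes were 0, 0.04 and 0.

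**Figure D2:**
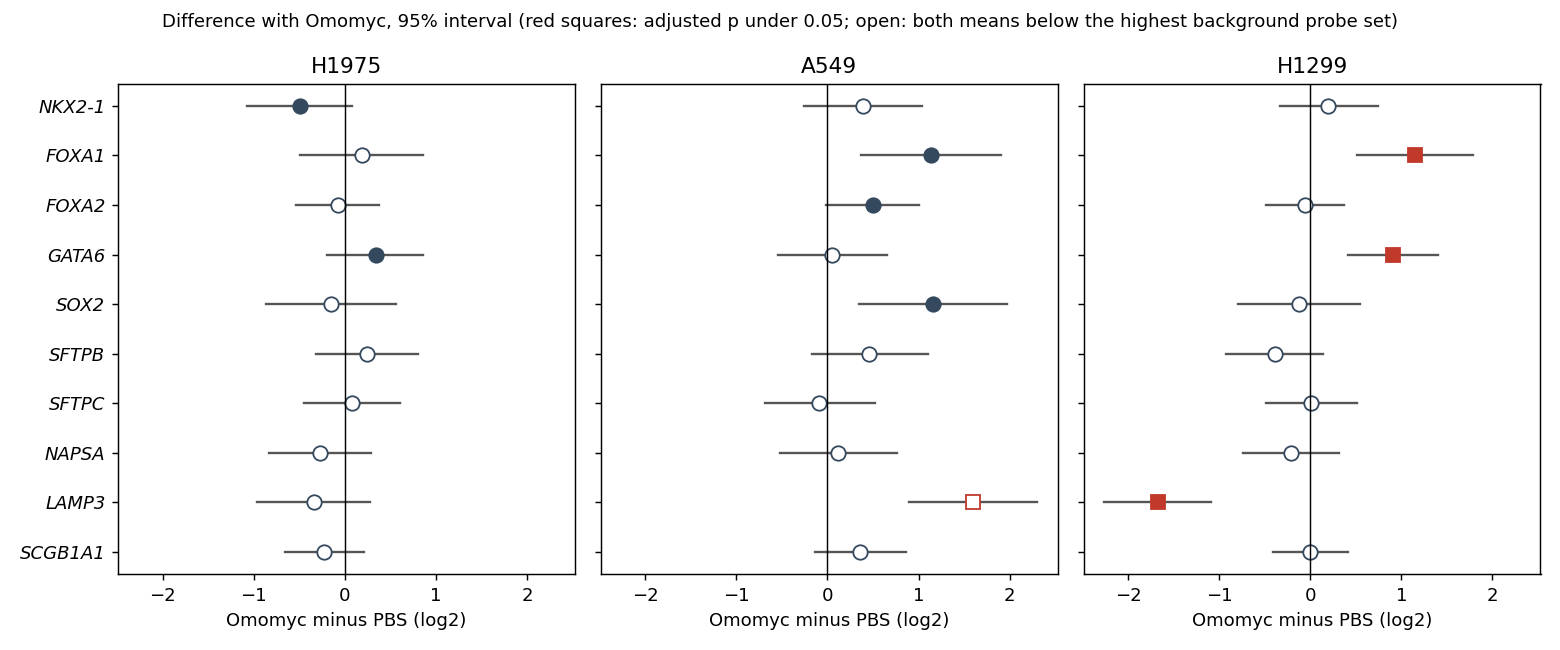
Omomyc minus PBS (log2) of the 10 members in H1975, A549 and H1299, with the 95% interval; red squares mark an adjusted p under 0.05, and open symbols mark pairs of groups whose means are both below the highest background probe set. LAMP3 lies at 1.60 in A549 and -1.67 in H1299, and FOXA1 lies at 1.14 in A549 and at 1.15 in H1299, where it was called.

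LAMP3 moved in opposite directions in A549 and H1299. In H1299 it was at 7.39, 7.14, 7.07, 7.48 and 6.27 in Omomyc arrays, against 8.86, 8.51, 8.72, 8.58 and 9.04 in PBS arrays. All Omomyc arrays were below all PBS arrays. The difference was -1.67 ± 0.28 (limma adjusted p = 0.000174, 95% interval -2.26 to -1.09). Within runs 1, 2 and 3 it was -1.47, -1.51 and -1.94, run 1 setting 1 array against 1. In A549 it was at 6.67, 6.76 and 6.61 in Omomyc arrays, against 4.99, 5.72, 4.44 and 5.19 in PBS arrays. These groups did not overlap either. The A549 difference was 1.60 ± 0.34 (limma adjusted p = 0.00948). Within runs 1 and 2 the A549 difference was 1.36 and 2.17, run 2 setting 1 array against 1. Both A549 means, 6.68 and 5.09, were below the highest background mean of 6.69, so the size of this rise is uncertain. The Omomyc arrays exceeded 23, 23 and 22 of the 23 background probe sets of the same array, and the PBS arrays 12, 16, 11 and 13. The A549 call was lost without Omomyc replicate 2 (1.56, limma adjusted p = 0.0529). In H1975, with Omomyc at 4.57 ± 0.61 and PBS at 4.91 ± 0.52 (SD, n = 5 and 4), the difference was -0.34 ± 0.30 and was not called.

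The difference in LAMP3 response between lines was tested itself. The moderated F test of the interaction gave a limma adjusted p of 3.48e-05 for LAMP3, and no other member passed it, where 8.18% of all genes did. Genes called higher in A549 and lower in H1299 numbered 7 of 17687 (0.0396%), LAMP3 among them, while 6 (0.0339%) went the other way and 59 (0.334%) were called higher in both. With Omomyc the A549 and H1299 means of LAMP3 were 6.68 and 7.07, and with PBS they were 5.09 and 8.74.

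FOXA1 was higher with Omomyc in H1299. Its levels were 6.89, 7.38, 7.44, 7.29 and 6.86 in Omomyc arrays, against 6.68, 6.12, 6.43, 5.31 and 5.60 in PBS arrays, with no overlap. The difference was 1.15 ± 0.31 (limma adjusted p = 0.015, 95% interval 0.51 to 1.79). Within runs 1, 2 and 3 it was 0.22, 1.14 and 1.62, run 1 setting 1 array against 1, and the call was lost without PBS replicate 4 (limma adjusted p = 0.0586). With the PBS mean of 6.03 below background, the supported rise is at least 1.07-fold. In A549, where FOXA1 is well above background, it was at 10.68, 11.11 and 11.85 in Omomyc arrays, against 10.05, 10.41, 10.29 and 9.56 in PBS arrays. The A549 groups did not overlap and the difference was of like size, 1.14 ± 0.37 (95% interval 0.37 to 1.91). It missed the threshold over all genes (unadjusted p = 0.00474, limma adjusted p = 0.181). Within runs 1 and 2 the A549 difference was 0.67 and 1.56, run 2 setting 1 array against 1. The lowest A549 PBS array, at 9.56, was in run 3, which held no A549 Omomyc array. H1975 gave 0.19 ± 0.33 with both means below background. The interaction test did not separate the 3 lines for FOXA1 (limma adjusted p = 0.326).

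GATA6 rose with Omomyc in H1299 as well. It was at 8.06, 8.36, 8.39, 8.11 and 7.91 in Omomyc arrays, against 6.91, 7.47, 7.82, 6.92 and 7.16 in PBS arrays. Each Omomyc array was above each PBS array. The difference was 0.91 ± 0.24 (limma adjusted p = 0.0122, 95% interval 0.42 to 1.40), with 1.16, 0.73 and 0.97 in runs 1, 2 and 3. In H1975, the line with the highest GATA6 level, the Omomyc arrays ran from 8.30 to 9.60 and the PBS arrays from 8.19 to 9.06, and the difference of 0.34 ± 0.25 was not called (95% interval -0.19 to 0.86). In A549 it was 0.05 ± 0.29 with both means below background. The interaction had a limma adjusted p of 0.311, and of 0.047 with the run as a block.

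SOX2 and FOXA2, high in A549 alone, were not called there. SOX2 was at 8.79, 9.49 and 9.53 in A549 Omomyc arrays, against 8.05, 8.79, 7.69 and 7.88 in PBS arrays. The lowest Omomyc array and the highest PBS array were both at 8.79, so the groups just overlapped. The difference was 1.16 ± 0.39 (95% interval 0.35 to 1.97, unadjusted p = 0.00567, limma adjusted p = 0.202), and within runs 1 and 2 it was 0.71 and 1.84. FOXA2 was at 10.76, 9.94 and 10.27 in A549 Omomyc arrays, against 10.27, 10.34, 9.33 and 9.35 in PBS arrays, and its groups overlapped. Its difference was 0.50 ± 0.25 (limma adjusted p = 0.587), and within runs 1 and 2 it was 0.04 and 0.94. In H1975 and H1299, below background, SOX2 gave -0.15 ± 0.34 and -0.12 ± 0.32, and FOXA2 gave -0.07 ± 0.22 and -0.06 ± 0.20.

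NKX2-1, above background in H1975 alone, was there at 7.58, 6.87, 6.62, 7.58 and 6.59 in Omomyc arrays, against 8.31, 7.55, 7.51 and 6.79 in PBS arrays. The highest background probe set of the same array was exceeded in 3 of 5 Omomyc and 3 of 4 PBS arrays. The groups overlapped, and the difference of -0.49 ± 0.27 was not called (95% interval -1.07 to 0.08, limma adjusted p = 0.31). Within runs 1, 2 and 3 it was -1.09, -0.43 and -0.20. In A549 and H1299, where NKX2-1 was below background in both groups, the differences were 0.39 ± 0.31 and 0.20 ± 0.26. For SFTPB, SFTPC, NAPSA and SCGB1A1, differences with Omomyc ran from -0.27 to 0.24 in H1975, from -0.09 to 0.46 in A549 and from -0.39 to 0.01 in H1299, all between values below background, and the lowest limma adjusted p was 0.466. SCGB1A1 in A549 was the one of these whose arrays did not overlap, at 3.04, 3.07 and 3.06 with Omomyc and 2.66, 2.65, 2.68 and 2.81 with PBS, a difference of 0.36 ± 0.24 (limma adjusted p = 0.802).

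**Figure D3:**
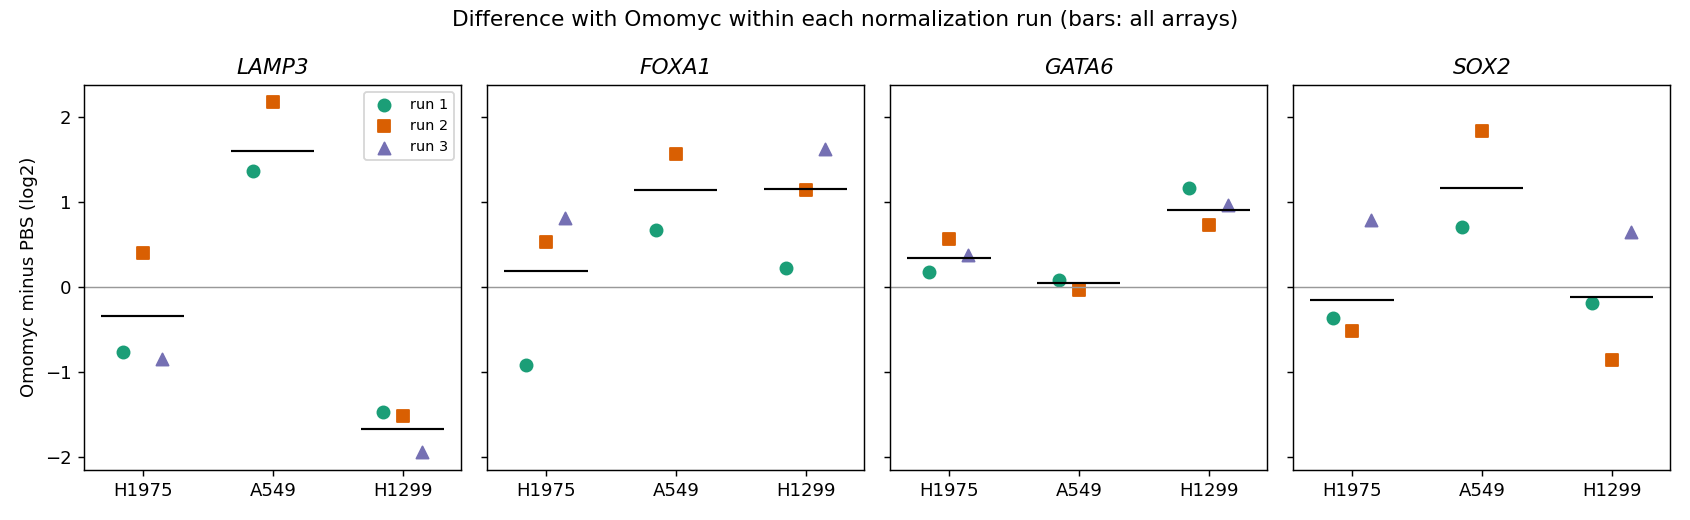
Omomyc minus PBS (log2) of LAMP3, FOXA1, GATA6 and SOX2 within each normalization run (symbols) and over all arrays (black bars) in H1975, A549 and H1299; A549 has no value in run 3. LAMP3 is above 0 in both A549 runs and below 0 in all 3 H1299 runs, while SOX2 changes sign between runs in H1975 and H1299.

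Other marker genes of lung and foregut cells placed the members in context. Of 15 measured alveolar type 2 genes beyond the members, 5 were above background in H1975 PBS arrays, 6 in A549 and 2 in H1299. With Omomyc the counts were 4, 5 and 5. In H1299 LPCAT1, LRRK2 and MFSD2A passed the limit of 6.69, from PBS means of 6.52, 6.49 and 6.40 to Omomyc means of 6.91, 6.80 and 6.76. These shifts were not called, and 0 of the 15 genes rose or fell by a called difference in H1299. Club and goblet genes were above background in A549 alone, 5 of 10, against 0 in H1975 and 0 in H1299. Of 10 foregut and gut endoderm genes, 5 were above background in A549, 0 in H1975 and 1 in H1299. Over all genes the share above background was 49.2% in H1975, 48.5% in A549 and 48.3% in H1299 PBS arrays. Both A549 counts of 5 of 10 were near that share, and the type 2 counts were below it. None of 4 measured basal or 6 measured neuroendocrine genes was above background in any line, and of 6 genes of blood, endothelial, fibroblast and liver cells 1 was above background in H1975 and 0 in the other lines. It was the fibroblast collagen gene COL1A1, singled out after its values were seen, at 8.30 ± 0.65 in H1975 Omomyc and 9.44 ± 1.14 in H1975 PBS arrays (SD, n = 5 and 4).

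**Figure D4:**
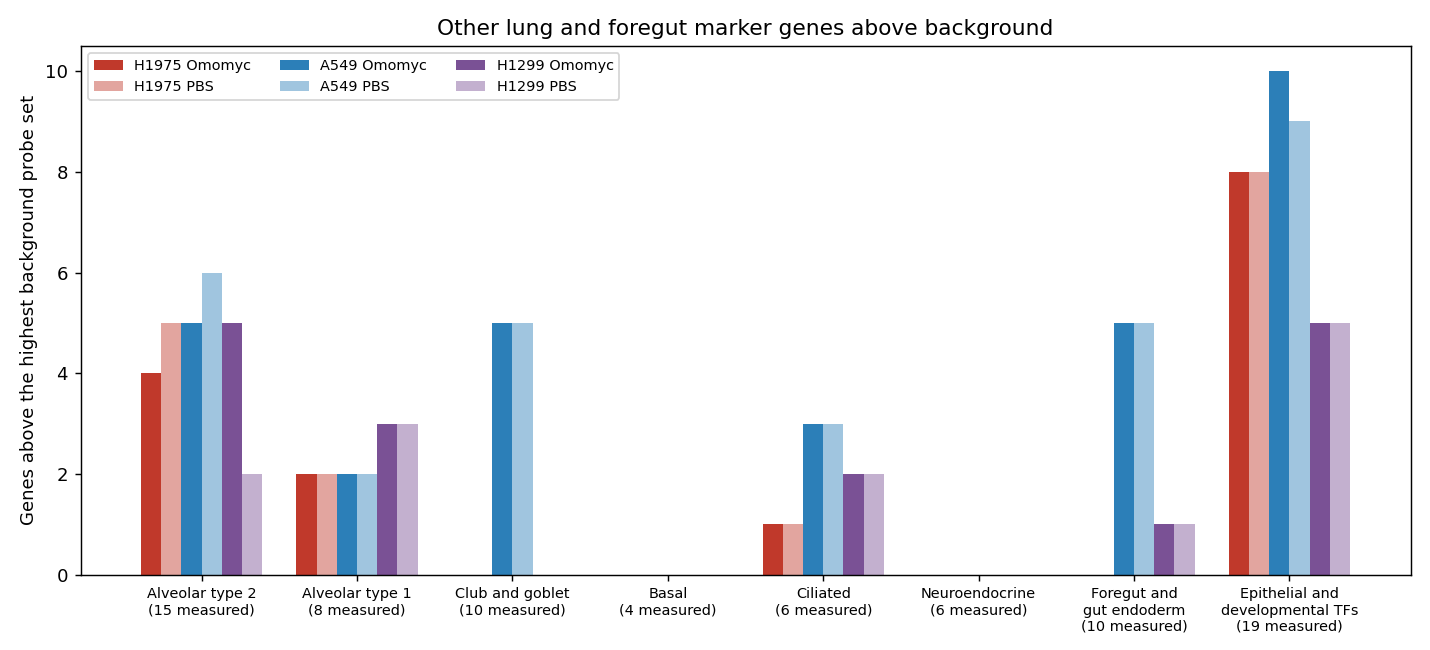
Number of genes above the highest background probe set in each marker list, for Omomyc (full colour) and PBS (pale) of each line. A549 has 5 club and goblet genes and 5 foregut and gut endoderm genes above background, H1975 has 0 of both, and basal and neuroendocrine lists have 0 in every group. Over all genes 48% to 49.2% were above background in the 6 groups.

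Over the 78 genes of these lists (without those of other cells), Omomyc was followed by 4 rises and 5 falls in H1975, 3 rises and 1 fall in A549, and 3 rises and 1 fall in H1299, where 11.8%, 1.19% and 8.87% of all genes were called in either direction. In H1975 ID2, an inhibitor of helix-loop-helix factors, rose by 1.87 ± 0.37 (limma adjusted p = 0.000756). KLF5, an epithelial Krüppel-like factor, fell there (-2.05 ± 0.27, limma adjusted p = 4.31e-06). ABCA3, the lipid transporter of lamellar bodies, also fell in H1975, at 8.53 ± 0.34 in Omomyc and 9.75 ± 0.45 in PBS arrays (difference -1.22 ± 0.23, limma adjusted p = 0.000511), as did the membrane protein gene EMP2 (-1.31 ± 0.22). The cathepsin gene CTSH (1.13 ± 0.32) and the keratin gene KRT14 (0.88 ± 0.26, below background in both groups) rose in H1975, each call being lost without some single arrays (limma adjusted p up to 0.0857 and 0.0951). In A549 AGR2, a disulfide isomerase gene of mucus-secreting cells, was at 16.25 ± 0.13 in Omomyc and 14.69 ± 0.48 in PBS arrays (difference 1.56 ± 0.29, limma adjusted p = 0.00232). BPIFB1 (1.63 ± 0.35) and TFF3 (1.21 ± 0.26, below background in both groups) also rose in A549 and HHIP fell (-1.90 ± 0.37, at 4.82 with Omomyc, below background, and 6.71 with PBS, so its size is uncertain), calls that leaving out 1 array could end (limma adjusted p up to 0.0754, 0.0908 and 0.0829). In H1299 KLF5 rose by 1.19 ± 0.26 (limma adjusted p = 0.00246), opposite to H1975, and the interaction test separated its responses (limma adjusted p = 3.5e-06). SOX9 (0.92 ± 0.27, below background in both groups) and NR3C1 (0.61 ± 0.18) rose in H1299, and RTKN2 fell (-0.90 ± 0.24), with limma adjusted p up to 0.128, 0.0817 and 0.0506 when 1 array was left out.

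Among genes with a mean above the median of all genes, those whose levels ran most like those of each member over the 26 arrays are given as a description, since the arrays form 3 line clusters and share runs. For LAMP3 they were UTP11 and FAM241A (Pearson r = 0.915 and 0.907), with r of 0.93 and 0.95 within H1299, 0.09 and 0.83 within A549, and 0.33 and 0.50 within H1975. For GATA6 they were SNX30 and ZNF880 (0.961 and 0.956), with r of 0.92 and 0.83 within H1299, 0.09 and 0.46 within A549, and 0.87 and 0.93 within H1975. FOXA1 was followed by RHPN2 and PECR (0.977 and 0.97), with r of 0.05 and 0.96 within A549, 0.68 and 0.67 within H1299, and 0.52 and 0.38 within H1975. For FOXA2, AKR1B15 and CXCL5 stood closest (0.995 and 0.994), for SOX2 GGT1 and SLC27A2 (0.96 and 0.957), and for NKX2-1 PRDX2 and CRLF2 (0.984 and 0.984). Within single lines r for these 3 members ran lower, from 0.03 to 0.73.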

How the data were processed

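Total RNA was hybridised to single-colour arrays. The deposited values are log2 probe set levels; RMA and Partek are named, without versions, in the submitters' processing notes, and no genome build is named in those notes. Of 24351 features, 17709 carried 1 gene symbol, and the remaining 6642, without a single symbol, were left out. The 20 genes with several probe sets were taken by the highest mean, leaving 17687 genes. limma 3.58.1 (lmFit, eBayes) in R 4.3.3 fitted 1 coefficient per group over all 26 arrays, and p-values were adjusted by Benjamini-Hochberg over all genes (threshold 0.05); no filter was set on low values. The labels call the arrays biological replicas and say nothing of separate cultures, so p-values measure the spread between arrays, whose number limits the precision. Normalization runs were found by clustering the sorted values of whole arrays.

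Alternatives were quantile normalization, median centring, the mean of probe sets, fits on single lines, trend and robust settings, array weights, the run as a block or alone, a replicate block, a stricter threshold, and leaving out each array. Deviations of Omomyc and PBS arrays of the same replicate number correlated at 0.11 to 0.20 in A549 and 0.26 to 0.39 in H1299. In H1975 they correlated at -0.20 to 0.33. Same-numbered A549 and H1299 arrays also shared a run, which the deviations keep, so these correlations cannot show that the numbers pair arrays. The 10 members and the marker lists were chosen with earlier results of these data known. All members are named. Of the marker lists, up to 3 called genes with the largest rise and 3 with the largest fall are named per line, and per member the 2 genes with the highest correlation. Procedures were tested on simulated data, and promoter sequences came from RefSeq.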

Additional observations from a re-analysis of the deposited data

Results flagged for a closer look

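LAMP3 differed between lines in its response. Omomyc minus PBS was -0.34 in H1975, 1.60 in A549 and -1.67 in H1299, and the moderated F test of the difference gave a limma adjusted p of 3.48e-05. Within each run that held both treatments it was positive in A549 (1.36 and 2.17) and negative in H1299 (-1.47, -1.51 and -1.94). The directions held within runs, though run 2 of A549 and run 1 of H1299 set 1 array against 1.

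Single arrays stood apart from their group, by the Dixon gap, in 2 of 50 groups of member values tested, where chance flags about 1 in 20. FOXA2 was at 4.20 in Omomyc replicate 4 of H1975, against 3.82 to 3.90 in the other 4, all below background. SOX2 was at 3.61 in PBS replicate 4 of H1975, against 4.75 to 4.95 in the other 3, also below background. The 3 A549 Omomyc arrays were too few to be examined in this way.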

How the results depend on the processing

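LAMP3 in A549 and LAMP3, FOXA1 and GATA6 in H1299 kept their direction in each run that held both treatments and with each array left out. Without 1 array, member calls numbered 0 in H1975, 0 to 1 in A549 and 2 to 3 in H1299, 5 to 6 between H1975 and A549, 4 to 5 between H1975 and H1299, and 5 between A549 and H1299; the interaction called 1. The A549 count was 0 in run 1 and 0 in run 2 alone, and the H1299 count 0 in run 1 alone, 1 in run 2 alone and 1 at an adjusted p under 0.01. With the run as a block the interaction called 2 members, LAMP3 and GATA6. NAPSA between H1975 and A549 turned to -0.08 in run 1 alone. The cause of these shifts was not tested, though run fits hold fewer arrays.

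With the replicate block, pairing Omomyc and PBS arrays by number, LAMP3 was 1.63 in A549 (adjusted p = 0.0147) and -1.67 in H1299 (0.000241), FOXA1 1.15 (0.00361) and GATA6 0.91 (0.0123) in H1299, and no member call changed.

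Over all genes, 2095, 211 and 1569 were called in H1975, A549 and H1299, and 1446 by the interaction. Leaving out 1 array gave 128 to 188 in A549, the count being 128 without Omomyc replicate 1 and 139 without PBS replicate 4. The run block gave 3400, 502, 2812 and 3073, and an adjusted p under 0.01 gave 1194, 113, 886 and 701. In A549, quantile normalization called 351, array weights 477 and a fit on that line alone 81; quantile normalization gave 2313 for the interaction. The A549 split of 162 higher and 49 lower became 227 and 124 with quantile normalization, 303 and 199 with the run block, 309 and 168 with array weights and 142 and 84 with the replicate block; in H1975 985 and 1110 became 1474 and 1111 with the replicate block. The background limits what can be said of the 4 members below it.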
